A study of Mus musculus with 33 samples.

Results

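Occupancy of Gata4 was compared with occupancy of Tbx5 in fibroblasts that carried retroviruses for Gata4, Mef2c and Tbx5 together. The comparison used 9 samples of the 33 libraries of the study: 5 Gata4 samples, made of 6 libraries of which 1 pair was summed, and 4 Tbx5 samples. Members were taken from the labels alone: every chromatin immunoprecipitation sequencing (ChIP-seq) library of either factor in cells with all 3 factors. The cells were a line of neonatal mouse cardiac fibroblasts of the strain Cd-1 and genotype alpha-MHC-GFP, immortalised with large T antigen. All groups were treated with sb431542, which blocks TGF-beta signalling, and xav939, which blocks Wnt signalling, and were collected unsorted at day 2. Groups drawn on for comparison were Mef2c and input chromatin of the same cells, and Gata4, Tbx5 and input of cells given 1 factor alone. By their labels the libraries of each group are biological replicates, with no word on whether they came from separate infections, so the p-values measure the spread between these libraries.

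Gata4 is a zinc-finger factor that recognises GATA sequences, and Tbx5 is a T-box factor that recognises T-box elements. In the developing heart both activate cardiomyocyte genes and can bind each other, and together with the MADS-box factor Mef2c they can drive fibroblasts toward a cardiomyocyte-like state. ChIP-seq reads at a region report how much chromatin from there an antibody brought down, directly bound or through a partner. Each factor was precipitated with its own antibody, both goat polyclonal antibodies of 1 supplier here, so a difference between factors and a difference between antibodies cannot be told apart. Because all factors came from viruses in 1 immortalised line, unsorted cells with none, some or all of the factors were read together, and the share of cells with each factor was not analysed here.

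The data were read counts at 30815 regions of 201 to 1484 bp (median 234 bp) of mouse build mm9, shared by all libraries. Totals over these regions were 352015 to 941173 counts in the 6 Gata4 libraries, 580261 to 1431928 in the 4 Tbx5 libraries and 165517 to 301678 in the inputs of the same cells. Levels are given as CPM, counts scaled to a total of 1000000 over the regions. Gata4 libraries 1 and 6 did not differ beyond sampling noise (chi-square test, p = 0.151) and were counted as 1 sample, named 1 and 6. The same held for inputs 1 and 3 and for inputs 2, 4 and 5, which leaves 3 inputs. Gata4 libraries 1, 3 and 6 had 194, 138 and 209 CPM in all on the Y chromosome against 3.59, 25.6 and 1.06 in libraries 2, 4 and 5, and Tbx5 library 3 had 11.7 against 1.72, 0 and 0.698 in libraries 2, 4 and 5. Within each factor this divides the numbers 1, 3 and 6 from 2, 4 and 5, which the labels do not name, although Gata4 library 4 is above Tbx5 library 3. A library labelled Gata4 alone, replicate 4, stood with the inputs: over the tested regions its log2 CPM correlated at 0.105 to 0.152 with the other libraries of its group and at 0.233 to 0.553 with inputs. Calls, counts and levels from the cells with a single factor are therefore given with and without it where they include Gata4.

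Gata4 and Tbx5 differed at many regions and stood at similar levels at many others. Of 25010 regions with enough counts to test, 12500 (50%) differed between the factors at an adjusted p under 0.05. Gata4 was higher at 5855 (23.4%), where the log2 fold change had a median of 1.32, and Tbx5 at 6645 (26.6%), with a median of -1.51. Log2 fold changes are Gata4 minus Tbx5 throughout, from edgeR's quasi-likelihood test with Benjamini-Hochberg adjustment. They exceeded 2 at 1420 regions and were below -2 at 1595. The 5 Gata4 samples all lay above the 4 Tbx5 samples in CPM at 5490 regions (22% of those tested), and all lay below them at 4685 (18.7%). Of the regions called by the test, 4779 and 4677 had such groups without overlap.

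**Figure D1:**
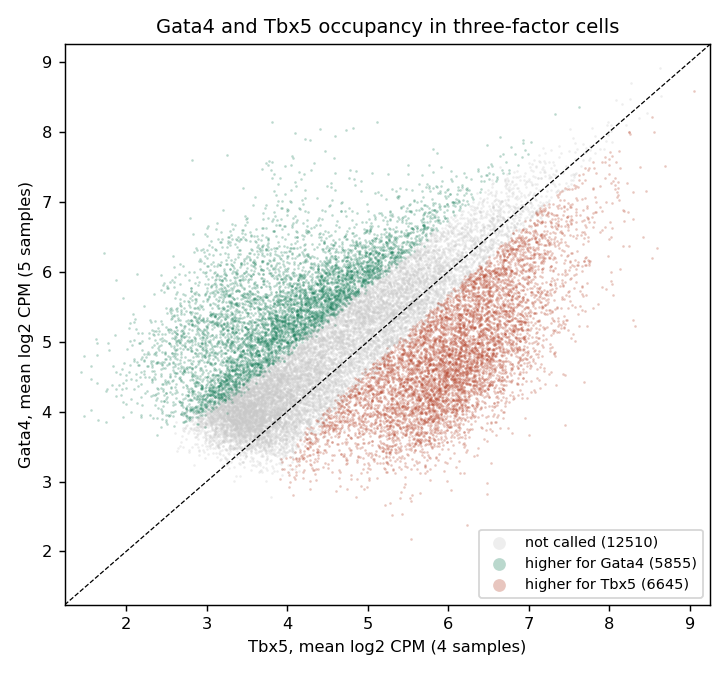
Mean log2 CPM of the 5 Gata4 samples (vertical) against the 4 Tbx5 samples (horizontal) at each of the 25010 tested regions, with the line of equal level dashed. The 5855 regions higher for Gata4 and the 6645 higher for Tbx5 form clouds on either side of a band of regions with similar levels.

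Which factor had more regions depended on how the libraries were scaled. Gata4 held 46.8% of the calls under TMM, the scaling used throughout, 57.7% when libraries were scaled by their totals, and 32.5% when TMM was computed only over regions that neither factor had above input. The median log2 fold change of all tested regions was 0.10, 0.33 and -0.20 under these 3 scalings. The existence of both sets, and the direction of the 20 regions named below, held under all 3.

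Samples of a factor resembled each other more than samples of different factors. Pearson correlations of log2 CPM over the tested regions were 0.698 to 0.896 among the 10 pairs of Gata4 samples and 0.81 to 0.919 among the 6 pairs of Tbx5 samples. The 20 pairs of a Gata4 with a Tbx5 sample reached 0.271 to 0.571. The replicate numbers 2 to 5 give 4 contrasts between a Gata4 and a Tbx5 library that share no library, and their 6 pairwise correlations over regions were 0.765 to 0.846. At the regions called higher for Gata4, the median log2 difference was 1.31, 1.38, 1.55 and 1.38 in numbers 2, 3, 4 and 5. At those higher for Tbx5 it was -1.08, -1.22, -1.30 and -1.17. These regions were called with the same libraries, so the medians are a description. The correlations describe regions, which are not independent replicates.

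The contrast was also measured within the division of libraries by Y-chromosome reads. Numbers 2, 4 and 5 alone gave 4076 regions higher for Gata4 and 5368 higher for Tbx5, and the fit with the division as a term gave 5721 and 6551. The numbers with more Y reads hold only 1 Tbx5 library, so no separate fit was made of them.

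Regions were then sorted by whether each factor exceeded the inputs of the same cells. Against input, Gata4 was higher at 8372 of 29058 regions (28.8%) and Tbx5 at 9475 of 28447 (33.3%). Called below input were 27.1% for Gata4 and 36% for Tbx5. Levels are relative to the regions themselves, so a high level at some can lower the others. The part of this in the calls below input was not tested. "Above input" therefore means more than the typical region, in relative terms. Of the tested regions, 3353 (13.4%) were higher for Gata4 and above input for Gata4 only, here called Gata4-only regions. The mirror class, Tbx5-only regions, held 4857 (19.4%). A further 1471 were above input for both factors and still differed: 306 with Gata4 higher and 1165 with Tbx5 higher, the graded regions. At 2443 (9.77%) both factors were above input and the 95% interval of the log2 fold change lay within 1 of 0, the shared regions. Of these, 2338 were not called in the contrast, and the rest are also counted among the graded regions. Neither factor was above input at 11325 (45.3%). At 2196 regions the level was higher for Gata4 with Gata4 not above input, and at 623 higher for Tbx5 with Tbx5 not above input. A level not called above input may still be above it: at the 623 the median Tbx5 level was 0.45 over input in log2, and at the 2196 the median Gata4 level was 0.25. In all, both factors were above input at 4154 regions (16.6%).

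Sample by sample, the classes separated with no overlap between factors where the rule set them apart. The level of each sample was expressed as the median over a class of log2 CPM against the summed inputs of the single-factor cells, libraries that took no part in the sorting. At Gata4-only regions the 5 Gata4 samples lay at 0.54 to 0.88 and the 4 Tbx5 samples at -1.22 to -0.84. At Tbx5-only regions the Tbx5 samples lay at 1.02 to 1.24 and the Gata4 samples at -0.36 to -0.23. This scale has no TMM factor, and over all tested regions the Tbx5 samples already lay at -0.40 to -0.28 and the Gata4 samples at -0.14 to -0.06. In the TMM-scaled fits against the inputs of the same cells, the weaker factor was near input in both classes, with a median of -0.17 for Tbx5 at Gata4-only regions and -0.01 for Gata4 at Tbx5-only regions. At shared regions the Gata4 samples lay at 0.68 to 0.93 and the Tbx5 samples at 0.50 to 0.80, ranges that overlap. Graded regions with Gata4 higher had the highest Gata4 level of any class, 1.21 to 1.56, with Tbx5 at 0.19 to 0.60. Graded regions with Tbx5 higher had Tbx5 at 1.35 to 1.42 and Gata4 at 0.54 to 0.75. The classes were cut from these Gata4 and Tbx5 samples, so their own levels are a description.

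**Figure D2:**
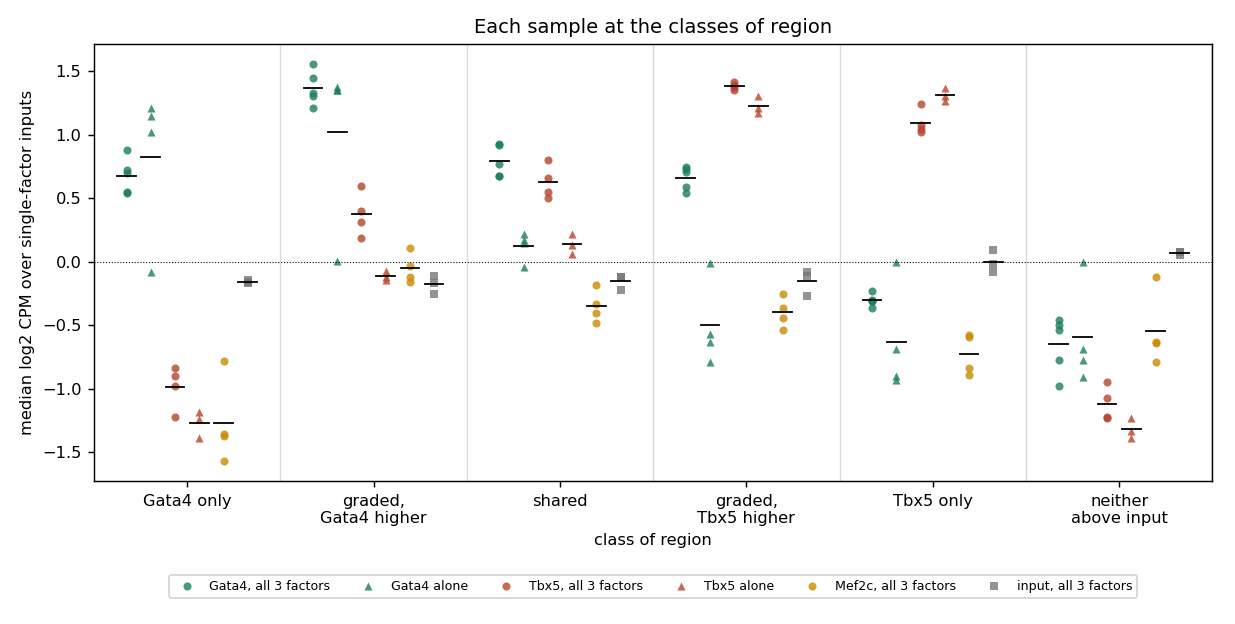
Median log2 CPM over the summed single-factor inputs (vertical) at 6 classes of region (horizontal), 1 point per sample and a bar at each group's mean; circles are cells with all 3 factors, triangles cells with 1 factor and squares inputs. Tbx5 samples sit below -0.8 at Gata4-only regions, and both factors overlap at shared regions; the single Gata4 triangle near 0 in every class is the library labelled replicate 4.

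The regions with the strongest preference for Gata4 had almost no Tbx5 reads. Named here are the 10 largest log2 fold changes in each direction among called regions with above-median level and no overlap between groups, a condition met by 2325 regions higher for Gata4 and 3914 higher for Tbx5. At chr2:170186394-170186763, the Gata4 samples 1 and 6, 2, 3, 4 and 5 had 118, 81.4, 95.6, 34.1 and 73.3 CPM, and the Tbx5 samples 2 to 5 had 0, 3.18, 0 and 0.698. The inputs averaged 28.4 CPM there, so every Gata4 sample was above that mean and every Tbx5 sample far below it. The log2 fold change was 5.96 ± 0.53 (SE, adjusted p = 3.58e-09). Tbx5 library 3 holds 3 of the 4 Tbx5 counts, so no fold is given without it.

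The second, chr11:104829799-104830074, had Gata4 at 263, 176, 207, 153 and 175 CPM and Tbx5 at 10.3, 5.3, 2.09 and 2.79, with a mean input of 22.3. All 5 Gata4 samples were high and close together, and the fitted log2 difference was 5.21 ± 0.33 (adjusted p = 6.21e-11). The third, chr10:67271994-67272270, had Gata4 at 76.7, 49.1, 60.2, 54.0 and 47.8 CPM against Tbx5 at 0, 2.12, 0 and 3.49, which gives 4.74 ± 0.45 on the log2 scale (adjusted p = 5.9e-09). Library 5 holds 5 of the 7 Tbx5 counts there, so no fold is given without it. It is 1 of 5 consecutive tested regions between 67270895 and 67272502 on chromosome 10, all higher for Gata4, with log2 fold changes of 2.23 to 4.98. That run was picked out after its values were seen, as 1 of a pair of longest runs in this direction. The other, 5 regions at chr8:124820476-124846934, had log2 fold changes of 1.12 to 1.49.

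The widest of the 10 was chr1:23539944-23540760, 817 bp, with Gata4 at 564, 272, 427, 73.9 and 351 CPM and Tbx5 at 12.1, 13.8, 7.31 and 14.0. Gata4 sample 4 was far lower than the rest there and below the mean input of 82.4. It was the lowest Gata4 sample at 8 of the 10 regions, and the sample 1 and 6 was the highest at all 10. The remaining 6 regions were chr18:65423865-65424298, chr9:75096494-75097149, chr15:101154604-101155041, chr17:86876889-86877168, chr9:82719681-82719917 and chr13:4186321-4186613. From the fourth region to the tenth, log2 fold changes ran from 4.02 to 4.63 and the largest adjusted p was 3.12e-06. Mean Tbx5 and mean Mef2c were below the mean input at 10 of the 10 regions.

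The regions with the strongest preference for Tbx5 mirrored this, with a wider spread among the Tbx5 samples. At chr18:36831937-36832140, the Tbx5 samples 2 to 5 had 179, 127, 36.6 and 32.8 CPM, and the Gata4 samples had 2.19, 4.79, 1.77, 2.84 and 2.13. The mean input was 14.9, above every Gata4 sample, and the fitted log2 difference was -5.17 ± 0.55 (adjusted p = 1.98e-07). Tbx5 samples 2 and 3 both exceeded samples 4 and 5 at 8 of the 10 regions. At chr16:92282334-92282537, Tbx5 was at 184, 106, 27.2 and 27.9 CPM and Gata4 at 2.92 to 8.85. Its log2 fold change of -4.32 ± 0.59 (adjusted p = 9.36e-06) was -3.73 without Tbx5 library 2.

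A cluster of 3 of the 10 regions lay within 1 stretch of chromosome 18. At chr18:75970051-75970667, the widest, Tbx5 had 424, 275, 98.2 and 74.7 CPM and Gata4 had 8.03, 25.1, 14.2, 8.52 and 7.44, with an input mean of 38.5. Beside it, chr18:75970724-75970965 had Tbx5 at 224, 141, 44.9 and 39.1 CPM and Gata4 at 2.13 to 12.0. The third, chr18:75970991-75971236, had Tbx5 at 207, 108, 53.3 and 47.5 CPM and Gata4 at 0 to 14.4. The log2 fold changes were -4.26 ± 0.53, -4.52 ± 0.56 and -3.94 ± 0.46. The same order of Tbx5 samples, 2 then 3 then 4 then 5, recurred in all 3, and near neighbours can share sequenced fragments.

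The Tbx5 samples were even at 2 regions: chr17:84625644-84625861 had 105, 83.7, 124 and 59.4 CPM against 2.84 to 10.6 for Gata4, and chr5:139625391-139625623 had 89.6, 54.0, 80.5 and 64.2 against 4.25 to 8.38. Their log2 fold changes were -3.68 ± 0.32 and -3.62 ± 0.31. The other 3 were chr2:167849285-167849662, chr3:137769192-137769560 and chr3:149092507-149092720. Mean Gata4 was below the mean input at all 10 and mean Mef2c at 9, the exception being chr17:84625644-84625861, where Mef2c averaged 27.3 CPM against an input of 17.8.

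**Figure D3:**
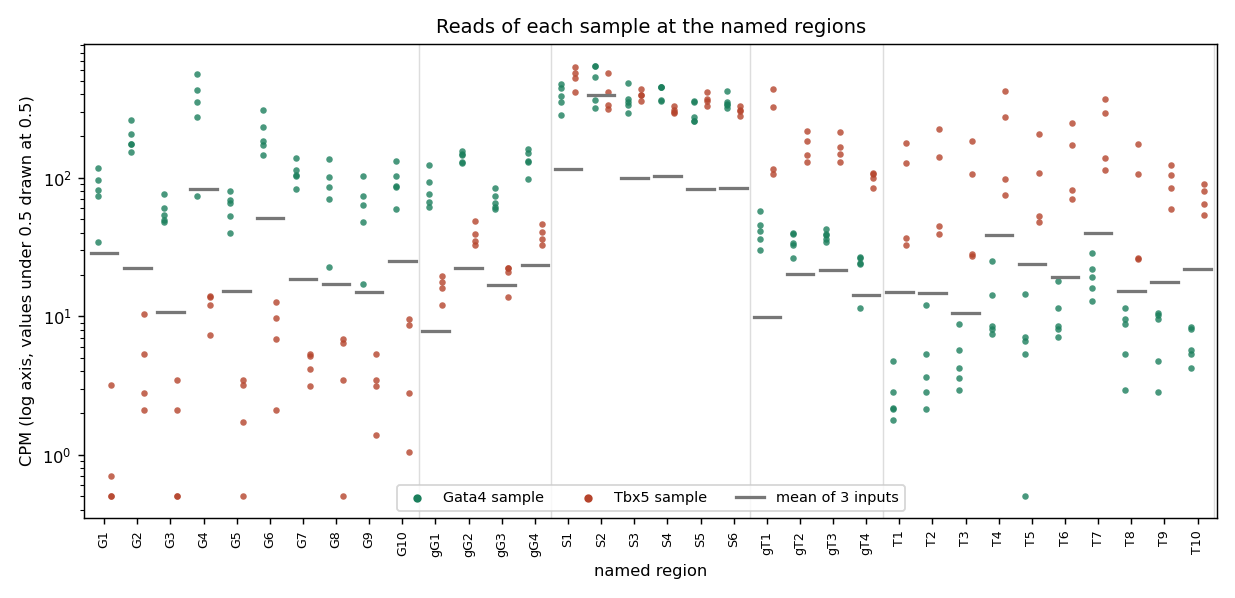
CPM of every Gata4 and Tbx5 sample (points, log axis) and the mean of 3 inputs (grey bars) at the named regions: G1 to G10 higher for Gata4, gG1 to gG4 graded with Gata4 higher, S1 to S6 shared, gT1 to gT4 graded with Tbx5 higher and T1 to T10 higher for Tbx5, each in order of rank. At G and T regions the other factor lies under the input bar, at graded regions it lies close to or above it, and at S regions samples of both factors lie between 255 and 645 CPM.

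At graded regions both factors were above input by the rule of the class, the weaker one at a lower level. The 4 named in each direction were the largest fold changes in the class with no overlap between samples. At chr7:151242175-151242520, Gata4 had 148, 128, 129, 145 and 155 CPM, Tbx5 had 48.3, 35.0, 32.4 and 39.1, and the inputs averaged 22.2. The difference in log2 was 1.67 ± 0.21 (adjusted p = 2.88e-07). The others with Gata4 higher were chr17:56416173-56416379 (2.12 ± 0.29), chrX:13038677-13038899 (1.56 ± 0.26) and chr19:38078754-38078959 (1.56 ± 0.23). With Tbx5 higher, chr4:107634672-107634940 had Tbx5 at 129, 167, 213 and 149 CPM, Gata4 at 35.8, 39.5, 42.5, 34.1 and 38.3, and an input mean of 21.5. The difference in log2 was -2.33 ± 0.22 (adjusted p = 4.35e-09). All Gata4 samples lay above that input mean and all Tbx5 samples above all Gata4 samples. Of the other 3, chr11:53880937-53881208 and chr3:108012987-108013204 had -2.55 ± 0.23 and -2.29 ± 0.24, and chrX:96372095-96372391 had -2.70 ± 0.36 with Tbx5 uneven at 436, 325, 106 and 116 CPM. Not every sample of the weaker factor exceeded the mean input. Tbx5 sample 2 had 13.8 CPM against 16.7 at chrX:13038677-13038899, and Gata4 sample 4 had 11.4 against 14.2 at chr3:108012987-108013204.

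At shared regions both factors stood at similar levels. The 6 shared regions of highest mean level had 299 to 499 CPM on average for Gata4 and 305 to 537 for Tbx5, and 5 of them were 500 bp wide or more. At chr8:35160316-35161324, 1009 bp, Gata4 had 476, 387, 352, 284 and 446 CPM and Tbx5 had 632, 572, 414 and 528, against a mean input of 115. The groups overlap there, and the log2 fold change of -0.65 ± 0.17 passed the test (adjusted p = 0.00178) while staying within the margin. At chr3:151692117-151692871, Gata4 had 425, 321, 350, 341 and 337 CPM, Tbx5 had 279, 331, 309 and 301, and the input averaged 84.2, which gives 0.01 ± 0.16 on the log2 scale (adjusted p = 0.972).

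At chr15:73166660-73167421, Gata4 had 453, 363, 357, 455 and 453 CPM against 291, 297, 328 and 307 for Tbx5. Every Gata4 sample exceeded every Tbx5 sample there, but the log2 fold change of 0.23 ± 0.16 did not pass the test (adjusted p = 0.239). At chr6:91495706-91496623 it was -0.32 ± 0.17 (adjusted p = 0.113), but in the fit with the paired replicate numbers as a block it was -0.43 ± 0.10 and passed (adjusted p = 0.000125), as it did without the Gata4 sample 1 and 6 (adjusted p = 0.0204). At chr9:48794690-48795761 it was -0.52 ± 0.17 (adjusted p = 0.0105), a call lost without Gata4 library 5 and without Tbx5 library 4 or 5 (adjusted p = 0.121, 0.0724 and 0.0945). The call was also lost with scaling by library totals (-0.28, adjusted p = 0.11) and with no filter (-0.56, adjusted p = 0.0503). The region chrX:166417917-166418386 belongs apart: its inputs averaged 398 CPM, close to the 314 to 645 CPM of both factors. How many regions count as shared depended on precision, since a margin of 0.5 in place of 1 left 113 regions of 2443, and scaling by library totals left 1309.

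Mef2c, the third factor in the cells, was seldom above input at the regions of largest contrast between Gata4 and Tbx5. Over the tested regions, Mef2c exceeded input at 37.2% (34.2% of all regions tested against input). The share was 21.6% at Gata4-only regions and 24.7% at Tbx5-only regions. At graded regions it was 53.0% with Gata4 higher and 40.9% with Tbx5 higher, and at shared regions it was 43.4%. It was as high, 44.0%, where neither Gata4 nor Tbx5 was above input, and it was 78.1% at the regions higher for Tbx5 with Tbx5 not above input. Along the contrast it was 0% above a log2 fold change of 3, 3.85% from 2 to 3, 14.1% from -3 to -2 and 7.41% below -3, and it was highest, 55.0%, from -1 to -0.5. The same inputs serve all 3 factors here, and with the inputs of the single-factor cells in their place the shares were 21.1% of all, 12.8% at Gata4-only, 17.7% at Tbx5-only and 21.8% at shared regions. The lower share at Gata4-only and Tbx5-only regions than over all was thus found with either set of inputs, while the higher share at shared regions shrank to near that of all regions. Graded regions were not measured with the single-factor inputs in this way. In levels, the 4 Mef2c samples lay at -1.57 to -0.78 at Gata4-only regions and -0.89 to -0.58 at Tbx5-only regions. They lay at -0.48 to -0.18 at shared regions, against -0.86 to -0.38 over all tested regions. At graded regions they lay at -0.16 to 0.11 with Gata4 higher and -0.54 to -0.25 with Tbx5 higher.

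Shared regions were wider than the typical tested region. The median width was 323 bp for shared regions, 260 bp for regions higher for Gata4, 281 bp for those higher for Tbx5 and 256 bp for all tested. Graded regions had 349 bp with Tbx5 higher and 297 bp with Gata4 higher, so the greater width was not particular to shared regions. Of the regions of 500 bp or more, 24.7% were shared and 38.6% had both factors above input. Of those at the minimum of 201 bp, 0.833% were shared and 88.2% had neither factor above input. Wider regions also hold more reads, which sharpens the test, and the part of this in the result was not tested. Regions preferring a factor did not avoid wide regions: 27.1% of those of 500 bp or more were higher for Gata4 and 37.3% higher for Tbx5.

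Preference was alike at regions lying side by side. Where the nearest tested region lay within 200 bp, 60.7% of regions higher for Gata4 had a neighbour also higher for Gata4, against 28.0% of all regions with so near a neighbour. For Tbx5 the shares were 68.0% and 36.2%. From 201 to 2000 bp they were 31.7% against 21.2% for Gata4 and 46.8% against 35.1% for Tbx5. From 2001 to 10000 bp they were 23.5% against 21.5% for Gata4, hardly apart, and 35.2% against 29.0% for Tbx5. Neighbours within 200 bp can share sequenced fragments, and the part of this in the result was not tested. Runs of at least 3 consecutive regions in 1 direction, none over 10000 bp from the next, numbered 38 for Gata4 and 142 for Tbx5. They held 125 of the 5855 regions higher for Gata4 and 460 of the 6645 higher for Tbx5. A tested neighbour within 10000 bp was also less common for Gata4 (43.0%) than for Tbx5 (51.9%), and the part of this in the counts of runs was not tested. The longest for Tbx5 had 6 regions, as at chr8:123059542-123067643, where log2 fold changes were -2.87 to -1.10.

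Both preferences were found on every chromosome with tested regions. The share higher for Gata4 ran from 18.9% on chromosome 4 to 29.3% on the X chromosome, and the share higher for Tbx5 from 21.9% on chromosome 10 to 35.9% on chromosome 7. Chromosomes 4, 7, 17 and 19 had 33.8, 35.9, 33.6 and 30.9% higher for Tbx5. Position relative to genes was not analysed here.

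The same preferences were measured in cells given only Gata4 or only Tbx5, in libraries that took no part in the contrast above. With each factor alone, 18790 regions were tested and 38.4% were higher for Gata4 and 32.9% higher for Tbx5. Of the 5090 regions higher for Gata4 with all 3 factors and tested in both settings, 4432 were also higher for Gata4 alone, 87.1% of them and 68.2% of the corresponding list alone. Of the 5817 higher for Tbx5, 5072 were also higher for Tbx5 alone, 87.2% of them and 84.1% of the list alone. The opposite call was made at 7 and 1 regions. Without the library labelled Gata4 alone, replicate 4, the shares were 93.9% of 4856 regions and 96.0% of 5536, with 12 and 2 opposite calls. These were 67.5% and 79.7% of the lists alone, where 43.1% and 40.1% of all regions tested alone were called. Same-direction calls for Gata4 were not confined to regions above input. They made up 90.7% where Gata4 was not above input and 87.6% at Gata4-only regions (95.9% and 93.7% without that library). For Tbx5 the shares were 52.4% where Tbx5 was not above input and 91.7% at Tbx5-only regions (85.7% and 97.9%). With neither factor above input, 3002 of 5570 regions were higher for Gata4 alone and 612 for Tbx5 alone (62.5% and 18.0% without that library). Over the 17721 regions tested in both settings, the log2 fold changes correlated at 0.888 (Pearson) and 0.906 (Spearman), and 0.891 and 0.908 without that library. The points are regions that share libraries within each setting.

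**Figure D4:**
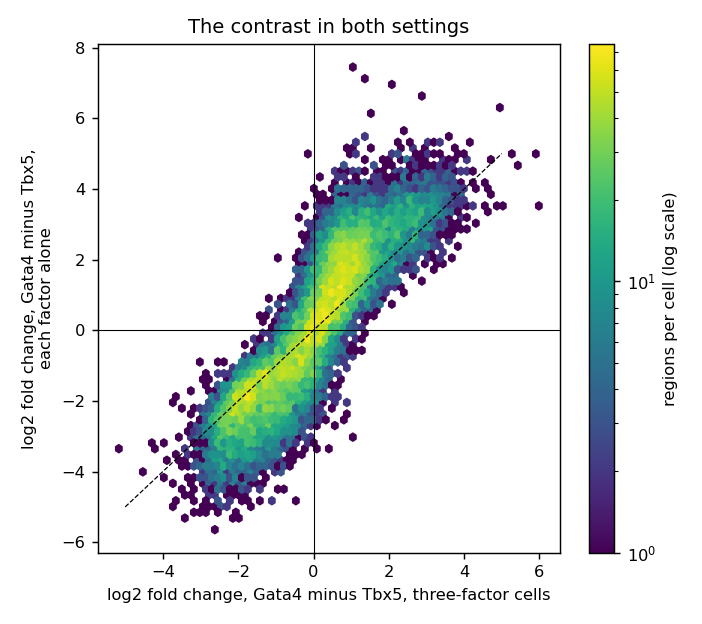
Log2 fold change of Gata4 minus Tbx5 with each factor alone (vertical) against cells with all 3 factors (horizontal) at the 17721 regions tested in both, all libraries included, coloured by the number of regions on a log scale, with equality dashed. Points follow a rising band that is steeper than the dashed line on both sides of 0, and 90.8% have the same sign in both settings.

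The 20 regions named for their preference had the same direction in both settings. All 10 of the regions preferring Gata4 and all 10 preferring Tbx5 were called in the same direction with each factor alone, with and without the library labelled replicate 4. At chr11:104829799-104830074 the mean was 201 CPM for Gata4 alone (265 without that library) and 5.83 for Tbx5 alone, and at chr5:139625391-139625623 it was 4.68 (4.75 without it) and 135. In the test of the difference between settings none of the 20 passed (lowest adjusted p = 0.269, and 0.219 without that library), which does not show that the contrasts were alike. With all libraries, the estimated differences ran from -1.69 ± 0.92 at chr18:36831937-36832140 to 1.39 ± 0.68 at chr5:139625391-139625623. At these regions they were -0.73 ± 1.09 and 1.35 ± 0.69 without the library labelled replicate 4. At chr2:170186394-170186763 and chr9:82719681-82719917 the Tbx5-alone libraries held 3 counts in total. At chr3:149092507-149092720 the Gata4-alone libraries held 2 counts in total. No fold alone is given at these regions.

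The measured contrast of Gata4 with Tbx5 was smaller with all 3 factors than alone. The median absolute log2 fold change was 0.95 with all 3 factors against 1.72 alone at the 17721 regions. A line fitted through the regions had a slope of 1.32 for the contrast alone on the contrast with all 3. Without the library labelled replicate 4 the medians were 1.01 and 1.96 and the slope 1.45. At shared regions both factors also stood higher with the others than alone: the Gata4 samples at 0.68 to 0.93 against -0.04 to 0.22 alone (0.15 to 0.22 without the library labelled replicate 4), and the Tbx5 samples at 0.50 to 0.80 against 0.06 to 0.22. Shared regions were chosen for being above input with all 3 factors, and those samples enter only that side, so this pair of ranges is a description.

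**Figure D5:**
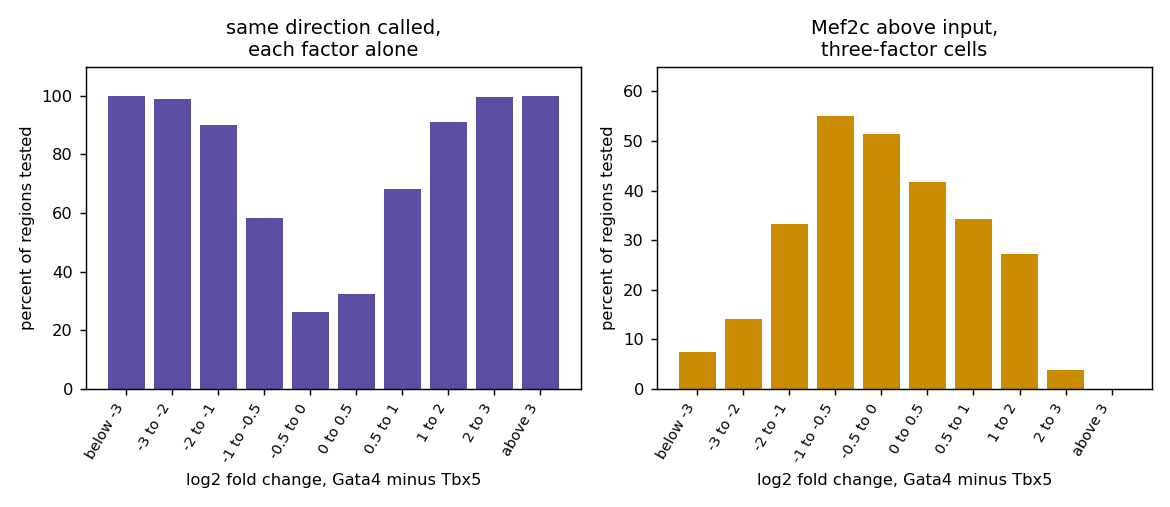
Left, percent of regions tested with each factor alone that were called in the same direction there, all libraries included; right, percent of regions with Mef2c above the inputs of cells with all 3 factors; both by bands of the log2 fold change of Gata4 minus Tbx5. Same-direction calls reach 100% in both outer bands and fall to 26.3% from -0.5 to 0, while Mef2c peaks at 55.0% from -1 to -0.5 and is 0% above 3.

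A change of the contrast itself between settings was called at a small share of regions. In simulated data the test of this change called 28.5% of planted 4-fold differences, so regions not called may still differ. The differences were planted in Gata4 of cells with all 3 factors, at regions above a minimum total count. Regions with fewer counts were not covered. In 1 fit of all ChIP groups, the log2 fold change of Gata4 minus Tbx5 differed between settings at 1100 of 30663 regions (3.59%): it was higher with all 3 factors at 811 (2.64%) and lower at 289 (0.943%). At the 811, Tbx5 was the higher factor alone at 796 of the 800 tested. Their median log2 fold change was -2.99 alone and -0.97 with all 3, with median Gata4 of 18.4 CPM alone (12.9 without the library labelled replicate 4) and 44.7 with all 3, and median Tbx5 of 137 CPM alone and 86.0 with all 3. At the 289, Gata4 was the higher factor alone at all 266 tested. Their median log2 fold change was 3.41 alone and 0.58 with all 3, with median Tbx5 of 5.51 CPM alone and 14.6 with all 3, and median Gata4 of 64.1 CPM alone (72.3 without that library) and 23.6 with all 3. The contrast was smaller in size with all 3 factors at 774 of the 777 first regions tested in both settings and at 239 of the 239 second ones. Mean CPM with all 3 was higher than alone for the factor that was low alone at 730 of the 777 and 236 of the 239, and lower than alone for the other factor at 662 and 211. Both levels moved toward each other in this way at 615 and 208. These regions were called by the difference itself. With the preferences found alone, that largely sets the directions counted here, so the counts are a description. Shares over all regions are not given for them.

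The number of such regions rested on single libraries. Without the library labelled Gata4 alone, replicate 4, it was 1788 higher (5.86%) and 1178 lower (3.86%), and these include 811 of the 811 and 282 of the 289. Their medians were -3.27 alone and -1.01 with all 3 factors for the first set, and 3.08 and 0.74 for the second. The contrast was smaller with all 3 factors at 1567 of 1574 and 1002 of 1002 regions tested in both. These sets too were called by the difference itself, so these counts are a description. Leaving out other libraries gave as few as 378 higher (without Tbx5 library 3 of cells with all 3 factors) and 68 lower (without Gata4-alone library 1). The counts also moved by over 1.5 times without Gata4 libraries 2 (506 higher) and 5 (508 higher), without Tbx5 libraries 2 (512 higher, 142 lower), 4 (608 lower) and 5 (494 higher, 126 lower), all of cells with all 3 factors. Among the cells with 1 factor, this was so without Gata4 library 1 (426 higher) or 2 (463 higher, 112 lower), and without Tbx5 library 1 (443 higher, 92 lower) or 2 (124 lower). Without Tbx5 library 3 of cells with all 3 factors, 166 were lower.

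The 6 regions named for a difference between settings were the 3 of lowest adjusted p in each direction with above-median level. At chr5:35963704-35964007, Gata4 had 176, 109, 120, 230 and 142 CPM with all 3 factors against a mean of 9.16 alone (6.25 without the library labelled replicate 4). Tbx5 had 222, 194, 171 and 146 CPM with all 3 and a mean of 213 alone. Gata4 and Tbx5 samples overlapped with all 3 factors, where the log2 fold change was -0.45 ± 0.21 (adjusted p = 0.0682; -0.52 ± 0.14 and adjusted p = 0.00111 with the replicate block), and it was -4.77 alone (-5.14 without that library). The difference between settings was 4.45 (adjusted p = 1.19e-06).

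At chr17:73371686-73372265, Gata4 averaged 25.6 CPM alone (11.7 without the library labelled replicate 4) and had 97.0 to 180 with all 3, while Tbx5 averaged 588 alone and had 250 to 391 with all 3, so both levels moved. The difference between settings was 3.72, and 4.46 without the library labelled Gata4 alone, replicate 4. At chr6:17015458-17015807 it was 3.06. In the other direction, chr11:119678737-119679400 had Tbx5 at 79.3, 79.5, 36.6 and 84.5 CPM with all 3 factors and a mean of 9.28 alone. Gata4 had 88.1 to 155 CPM with all 3 and a mean of 131 alone (149 without that library), and the difference was -3.02 (adjusted p = 0.00144). At chr14:70486731-70486937 it was -3.48, and at chr16:94943567-94943808 it was -2.93, or -3.71 without Tbx5-alone library 3. Of the 8 named graded regions, chr11:53880937-53881208 and chr4:107634672-107634940 also differed between settings (adjusted p = 0.008 and 0.000609): Gata4 averaged 7.4 and 8.17 CPM there alone (2.38 and 7.89 without the library labelled replicate 4), below every Gata4 sample with all 3 factors. Without the library labelled Gata4 alone, replicate 4, 1 of the 4 with Gata4 higher and 3 of the 4 with Tbx5 higher differed, and 1 of the 6 named shared regions did (adjusted p = 0.0411).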

How the data were processed

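The authors deposited 1 table of whole-number read counts per region for all 33 libraries, not normalised. Per the submitters' processing notes, reads were checked with FastQC, with alignment by Bowtie2 2.2.4 and counting by featureCounts, on mm9. How duplicates were handled and regions chosen is not given in the sources used here. No gene or sequence was assigned to a region, since no table of mm9 was at hand, and the planned gene lists and motifs were not used here.

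Each comparison was fitted to all regions with edgeR 4.0.16 in R 4.3.3 (quasi-likelihood F test, robust, TMM scaling, filterByExpr with minimum count 10 and minimum total 15). Tests were two-sided, with Benjamini-Hochberg adjustment over the regions tested and calls at an adjusted p under 0.05. The SE is the log2 fold change divided by the square root of F, and intervals are at the 95% level. Gata4 was compared with Tbx5 in a fit of these 2 groups. The difference between settings came from 1 fit of the 6 ChIP groups. Log2 CPM used a prior count of 2. Fitted fold changes of groups with few or no counts depend on the prior and are not bounds. Libraries were summed where a chi-square test over regions with expected counts of at least 5 found no difference while other pairs of the group differed.

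Same-numbered Gata4 and Tbx5 samples 2 to 5 of cells with all 3 factors deviated together from their group means (r = 0.333, 0.188, 0.443 and 0.432). Samples of unlike number had r from -0.268 to 0.268, a range that holds the value of number 3. The numbers were taken to pair the samples, less surely for number 3, and a fit with the number as a block was run as an alternative. Other alternatives were DESeq2 1.42.0, other scalings, no filter, other sets of libraries and inputs, and leaving out each sample.

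Named regions passed the test, had a mean level (log2 CPM) above the median and no overlap between groups, and were the 10 largest in each direction. Shared regions were the 6 of highest level, graded regions the 4 largest in each direction, and regions that differed between settings the 3 of lowest adjusted p in each direction. The members, classes, lists and rules were chosen with earlier results of these data known. The fits were tested on simulated data, with differences planted at regions above a minimum total count. Of planted 2-fold differences, 38% were recovered for Gata4 versus Tbx5 with all 3 factors. Over input the shares were 20% for Gata4 and 12% for Tbx5. Of planted 4-fold differences, 100%, 94% and 94% were recovered in these fits. False calls were 3.5%, 4.2% and 7.02% of calls. A factor not called above input can thus be 2-fold above it, which bears on every class that rests on such a non-call.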

Additional observations from a re-analysis of the deposited data

Results flagged for a closer look

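The contrast of Gata4 with Tbx5 differed between cells with all 3 factors and cells with 1 factor at 1100 regions in the test of the difference itself. Among the named ones the differences, in log2, were 4.45 at chr5:35963704-35964007, 3.06 at chr6:17015458-17015807, 3.72 at chr17:73371686-73372265, -3.02 at chr11:119678737-119679400, -3.48 at chr14:70486731-70486937 and -2.93 at chr16:94943567-94943808.

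In 13 of 188 groups of samples checked, 1 sample stood far from the rest; chance alone flags about 1 in 20 groups. The library labelled Gata4 alone, replicate 4, did so 5 times. It had 18.0 CPM at chr18:75970724-75970965 (next highest 3.38), 22.4 at chr16:92282334-92282537 (2.07) and 18.0 at chr18:75970991-75971236 (2.2). Its median log2 level over inputs was -0.08 at Gata4-only regions, where the next lowest library had 1.02, and 0.01 at graded regions with Gata4 higher, where the next had 1.35.

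Mef2c sample 2 stood apart at 3 regions, with 10.4 CPM at chr18:75970991-75971236 (next 3.49), 23.5 at chr2:167849285-167849662 (6.40) and 154 at chr6:91495706-91496623, where the next lowest had 256. Mef2c sample 5 had 32.4 CPM at chr7:151242175-151242520 (next 20.1).

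Of the Gata4 and Tbx5 samples of cells with all 3 factors, the Gata4 sample 1 and 6 had 425 CPM at chr3:151692117-151692871 (next 350), and Gata4 sample 4 had 11.4 at chr3:108012987-108013204 (next lowest 23.9). Tbx5 sample 2 had 13.8 CPM at chrX:13038677-13038899 (next lowest 20.9), and Tbx5 sample 4 had 36.6 at chr11:119678737-119679400 (next lowest 79.3).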

How the results depend on the processing

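The 20 regions named for a preference stayed called in the same direction in every alternative run. Leaving out 1 sample gave 5136 to 5956 regions higher for Gata4 and 5955 to 6715 higher for Tbx5. With the replicate number as a block the counts were 7378 and 7264 of 24080, and 12139 of the 12228 calls tested in both fits kept their direction and call. The block, a fit of the paired numbers, ended no call of a named region and moved no count by over 1.5 times. It made calls at chr6:91495706-91496623 and, for the contrast with all 3 factors, at chr5:35963704-35964007. The share of calls held by Gata4 was 42.7% with DESeq2 and 39.3% in 1 fit of all ChIP groups.

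Counts that moved by over 1.5 times were as follows. TMM over regions not above input gave 3779 regions higher for Gata4. Scaling by library totals gave 5208 regions of Gata4 and 5832 of Mef2c above input, 1309 shared and 600 graded regions. A margin of 0.5 gave 113 shared regions. Single-factor inputs, an alternative chosen after seeing the data, gave Mef2c above input at 21.1% of all, 12.8% of Gata4-only and 21.8% of shared regions. For the difference between settings, a fit of the 4 Gata4 and Tbx5 groups gave 466 lower regions, and leaving out 1 library gave 378 to 1788 higher and 68 to 1178 lower. Of 612 values of named regions under alternatives, 602 stayed on their side of the threshold, and 5 weaker and 5 stronger ones all belong to the shared regions chr9:48794690-48795761, chr6:91495706-91496623 and chr15:73166660-73167421. Depth limits the low side: at several named regions a factor has a handful of reads.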
